A study of Mus musculus with 16 samples.

Results

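The epithelial sodium channel and the genes of its aldosterone control were followed across 16 RNA-seq libraries of mouse colonocytes, the lining cells of the large bowel. The 9 genes were taken from the count table by symbol: the channel subunits Scnn1a, Scnn1b and Scnn1g, the mineralocorticoid receptor gene Nr3c2, the receptor's gatekeeper enzyme gene Hsd11b2, the kinase gene Sgk1, the ubiquitin ligase gene Nedd4l, and the steroid-response genes Tsc22d3 and Fkbp5. All 9 were found among the 54392 symbols of the table, and 9 of 9 were among the 13825 genes with enough counts to be tested. They were chosen with their difference between the diets already known. The diet values of these 9 genes, counts of calls included, are therefore given as a description and support nothing. Tests of the 9 genes are read only for measures that played no part in that choice.

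All mice were C57BL/6, and they received for 3 weeks either corn oil with cellulose (9 libraries) or fish oil with pectin (7 libraries). The labels name no genetic change, and they do not state the age of the mice or the segment of colon taken. Stranded mRNA libraries were made from 200 ng of colon RNA. The labels number the libraries as biological replicates without tying each to its own animal. The p-values therefore describe how these libraries scatter, which may be technical. Among the library names 10 carry the prefix GC (5 of each diet) and 6 lack it, 4 of them corn oil/cellulose and 2 fish oil/pectin. The labels do not explain the prefix.

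Sodium absorption in the distal colon runs through this channel, usually called ENaC, which is built from alpha, beta and gamma subunits in the apical membrane. Aldosterone enters the cell and binds the mineralocorticoid receptor. The enzyme encoded by Hsd11b2 inactivates glucocorticoids, which would otherwise occupy the same receptor. Sgk1, a kinase induced by the receptor, phosphorylates Nedd4l, the ligase that removes the channel from the membrane, and in rodent colon aldosterone is known for inducing the beta and gamma subunits rather than alpha. Tsc22d3, which encodes the protein GILZ, and Fkbp5, which encodes a co-chaperone of steroid receptors, are widely used readouts of corticosteroid signalling.

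Library totals ran from 13996288 to 19512755 counts. The summed level of 10 epithelial markers was 19533 to 34351 CPM (counts relative to each library's TMM-scaled size), and that of 7 B cell markers did not exceed 1.60 CPM. T and NK cell markers, 12 genes, summed to 46.4 to 90.5 CPM in GC-named corn oil/cellulose libraries and to 13.8 to 23.1 CPM in the remainder of that diet. The sums for fish oil/pectin were 21.04 to 42.4 CPM with the prefix and 16.7 to 22.4 CPM without it. Fish oil/pectin library 7 stood apart in the posterior Hox genes, which mark the distal colon. Their mean over 8 genes was 1.299 log2 CPM there, 3.40 to 4.61 in the other fish oil/pectin libraries and 3.49 to 4.76 in corn oil/cellulose libraries. Hoxd13 alone was at 0.629 CPM in library 7 and at 23.9 CPM or more in the other 15 libraries. For the 10 anterior Hox genes, which mark the proximal colon, library 7 had a mean of 4.37 log2 CPM. That was the highest of the fish oil/pectin libraries (4.04 to 4.37) and inside the corn oil/cellulose range (3.90 to 4.49). Values without that library are given wherever they bear on a result.

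The sequences just before the transcription starts of 3 members that the results turn on are shown first: the gamma and beta subunit genes, which stood lower with fish oil/pectin, and Sgk1, which differed between the name forms. They are the 250 bases before a RefSeq start on GRCm38.p6, all on the plus strand. None overlaps an annotated exon of its own gene. Capitals mark the hexamer TGTTCT or its reverse AGAACA, the core of the response element shared by the mineralocorticoid and glucocorticoid receptors, searched on both strands.
Scnn1g, chr7:121734229-121734478: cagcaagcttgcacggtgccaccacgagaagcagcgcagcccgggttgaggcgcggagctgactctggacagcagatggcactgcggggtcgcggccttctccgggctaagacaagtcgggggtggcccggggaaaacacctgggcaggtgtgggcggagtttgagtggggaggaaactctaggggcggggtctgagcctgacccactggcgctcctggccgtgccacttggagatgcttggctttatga
Scnn1b, chr7:121864788-121865037: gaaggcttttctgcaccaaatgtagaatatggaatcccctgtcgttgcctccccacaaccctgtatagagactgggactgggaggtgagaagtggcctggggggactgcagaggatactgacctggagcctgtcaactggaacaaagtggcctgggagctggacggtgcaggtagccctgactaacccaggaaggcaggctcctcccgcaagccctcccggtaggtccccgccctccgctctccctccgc
Sgk1, chr10:21993640-21993889: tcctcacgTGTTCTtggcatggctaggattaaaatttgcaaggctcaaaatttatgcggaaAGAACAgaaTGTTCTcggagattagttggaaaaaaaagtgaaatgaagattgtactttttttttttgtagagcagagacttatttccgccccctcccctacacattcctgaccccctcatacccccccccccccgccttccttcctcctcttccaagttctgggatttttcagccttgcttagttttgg
The Scnn1g and Scnn1b windows hold no copy of the hexamer. The Sgk1 window was chosen among the 6 listed Sgk1 starts because it held the most copies, 3, whose first bases lie at -242, -189 and -180 from that start. The last 2 of these form the palindrome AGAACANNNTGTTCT. Of 32851 windows of this length in the RefSeq table, 16.1% hold the hexamer (10.96% of those of tested genes) and 3 hold the palindrome (0.0091%). Windows are described for 6 of 9 members: Scnn1g, Scnn1b, Nr3c2, Sgk1, Fkbp5 and Tsc22d3. None was matched for Scnn1a and Hsd11b2, and Nedd4l was left out of this description by choice, not for lack of a match. Of the other 5 Sgk1 windows 2 hold 1 copy and 3 hold 0. The single windows of Fkbp5 and Nr3c2 hold 0 copies, and of the 3 Tsc22d3 windows 1 holds 1 copy. A match is a description of the letters, and its absence says only that these letters are not in the window.

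The gamma subunit gene Scnn1g stood under fish oil/pectin at a small part of its corn oil/cellulose level, the receptor gene Nr3c2 stood lower in every library, and the alpha subunit gene, Sgk1 and Tsc22d3 differed little. In the fit over all genes 6 of the 9 members were called lower with fish oil/pectin and 0 higher. Of all 13825 genes 42.7% were called, 22.1% higher and 20.6% lower, with a median log2 fold change of -0.01. Because the members were picked on this contrast, their count cannot be read against those shares. In bulk samples fewer cells of a type and less RNA per cell cannot be told apart.

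**Figure D1:**
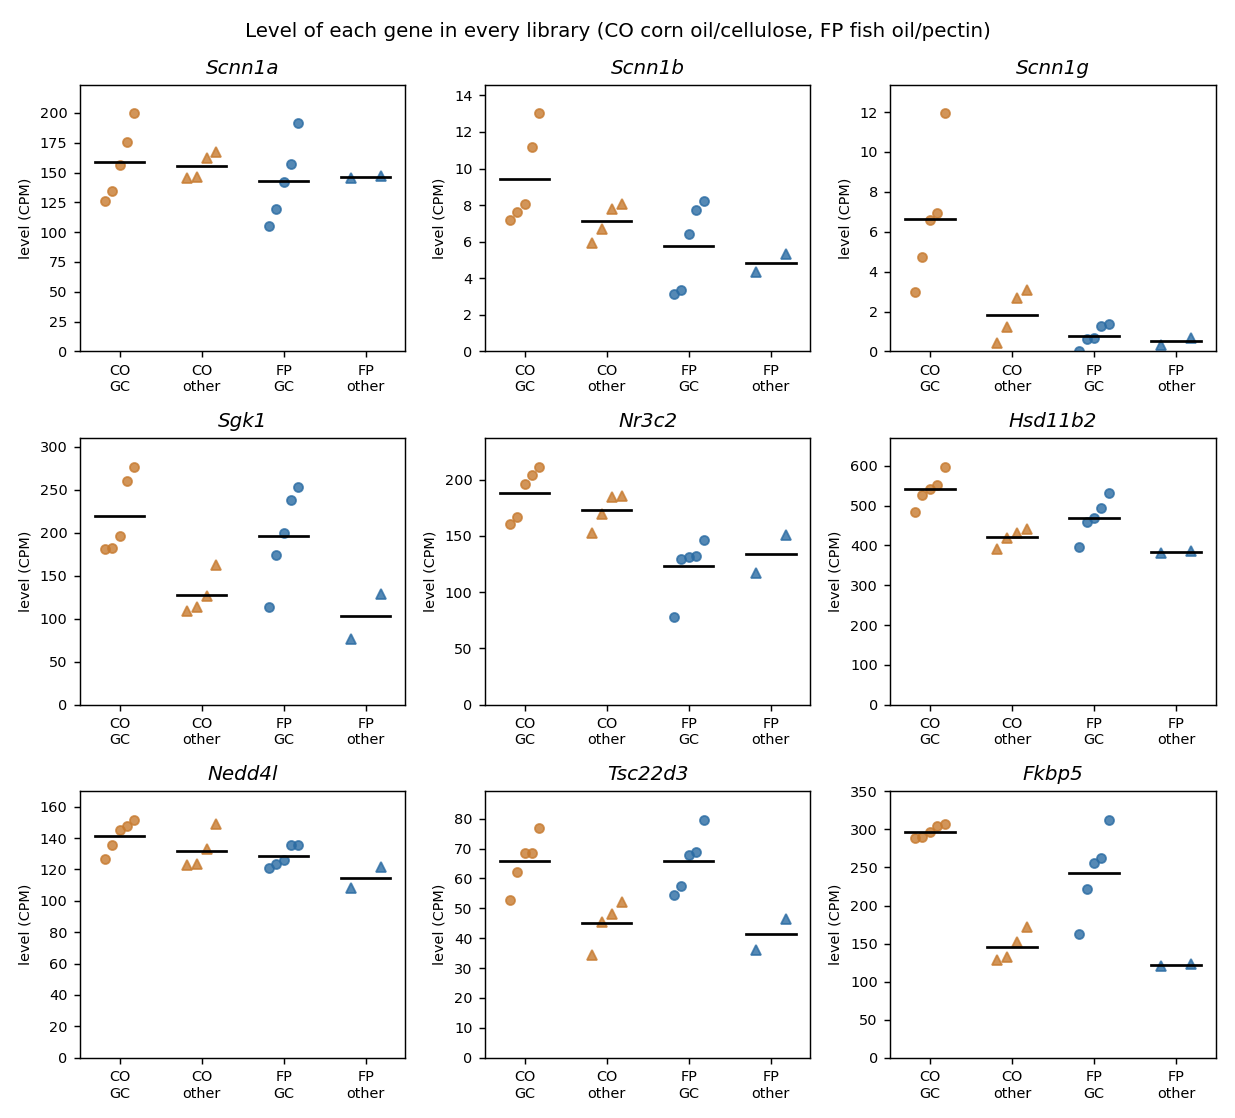
Level in CPM of each of the 9 genes in every library, by diet (orange, corn oil/cellulose; blue, fish oil/pectin) and by name form (circles, GC; triangles, other), with a bar at each group's mean. Scnn1g lies at 2.99 to 11.9 CPM in GC-named corn oil/cellulose libraries and at no more than 1.38 CPM with fish oil/pectin, while Fkbp5 and Tsc22d3 lie higher in GC-named libraries of either diet.

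Scnn1g (ENSMUSG00000000216.8, chromosome 7, 121734479 to 121768475, plus strand, GRCm38) encodes the gamma subunit. Its level was 6.95, 6.59, 11.9, 2.99 and 4.72 CPM in GC-named corn oil/cellulose libraries 5 to 9, and 1.20, 0.403, 3.10 and 2.67 CPM in libraries 1 to 4 of that diet. Fish oil/pectin libraries gave 0.654, 0.646, 1.29, 1.38 and 0 CPM in GC-named numbers 3 to 7, and 0.345 and 0.661 CPM in libraries 1 and 2. Among GC-named libraries the diets did not overlap, whereas corn oil/cellulose libraries 1 and 2 fell inside the fish oil/pectin range. The zero in fish oil/pectin library 7 allows a level of up to 0.171 CPM (3 counts, counting error only). Raw counts were 0 to 24 with fish oil/pectin and 7 to 188 with corn oil/cellulose, so the gene is measured from few reads. The log2 fold change, fish oil/pectin over corn oil/cellulose with the name form as a term, was -2.75 ± 0.49 (SE), a fitted level of 0.149 times. Without library 7, the library low in posterior Hox genes, it was -2.49.

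Scnn1b (ENSMUSG00000030873.9, chromosome 7, 121865038 to 121918514, plus strand), the beta subunit gene, lies downstream of Scnn1g on the same strand and overlaps Cog7 on the opposite one. The strand setting of the counting was not stated, so reads of Cog7 may not have been told apart. Its level was 7.20, 11.2, 13.0, 7.63 and 8.08 CPM in GC-named corn oil/cellulose libraries and 6.71, 5.93, 8.06 and 7.80 CPM in the others. In the fish oil/pectin diet it was 3.15, 3.36, 6.40, 7.71 and 8.23 CPM in GC-named libraries and 5.34 and 4.35 CPM in the others. The diets overlapped, and the highest fish oil/pectin value was in library 7, where the gamma subunit was not detected. The log2 fold change was -0.65 ± 0.20.

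Scnn1a (ENSMUSG00000030340.16, chromosome 6, 125320659 to 125344943, plus strand) encodes the alpha subunit, which is the most abundant of the 3 here. It ranged from 126 to 199 CPM (median 156) with corn oil/cellulose and from 106 to 191 CPM (median 145) with fish oil/pectin, with broad overlap. Its log2 fold change of -0.13 ± 0.11 was close to its standard error.

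Per kilobase of exon the subunits were present in very unequal amounts. Alpha stood at 38.0 ± 5.40 CPM per kb (SD, n = 9) with corn oil/cellulose and at 34.9 ± 6.64 (SD, n = 7) with fish oil/pectin. Beta stood at 3.19 ± 0.854 and 2.09 ± 0.769, and gamma at 1.51 ± 1.19 and 0.238 ± 0.164 CPM per kb. Alpha RNA was therefore 12.4 ± 2.48 times (SD, n = 9) the beta level with corn oil/cellulose and 19.3 ± 9.27 times (SD, n = 7) with fish oil/pectin. Gamma RNA was 43.3% ± 26.9 (SD, n = 9) of the beta level with corn oil/cellulose, from 5.98% in library 2 to 85.00% in library 5. With fish oil/pectin it was 12.5% ± 7.01 (SD, n = 7), from 0% in library 7 to 18.3% in library 3. In GC-named corn oil/cellulose libraries it was 60.7% ± 21.5 (SD, n = 5), against 21.4% ± 12.9 (SD, n = 4) in the others of that diet.

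**Figure D2:**
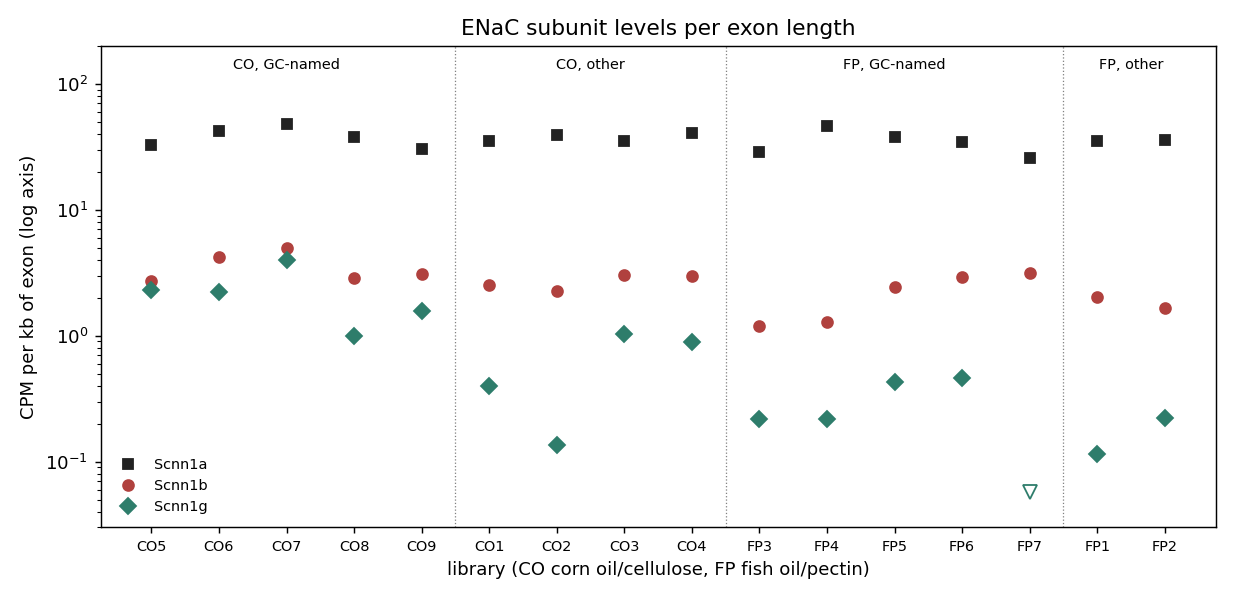
CPM per kilobase of exon (log axis) of Scnn1a (squares), Scnn1b (circles) and Scnn1g (diamonds) in each library, ordered by diet and name form; the open triangle is the 3-count floor of the library with no Scnn1g count. Alpha lies above beta in every library, and gamma reaches up to 85.00% of beta with corn oil/cellulose and at most 18.3% with fish oil/pectin.

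Nr3c2 (ENSMUSG00000031618.13, chromosome 8, 76899442 to 77245012, plus strand) encodes the mineralocorticoid receptor. Its level was 161, 204, 212, 167 and 197 CPM in GC-named corn oil/cellulose libraries and 186, 153, 170 and 185 CPM in the others. The receptor gene was at 132, 146, 131, 129 and 77.8 CPM in GC-named fish oil/pectin libraries and 117 and 151 CPM in the others. The lowest corn oil/cellulose library, at 152.8 CPM, lay just above the highest fish oil/pectin library, at 150.7 CPM. Nr3c2 was the 1 member whose diets did not overlap over all 16 libraries, which holds for 3.41% of tested genes. Among GC-named libraries alone 2 members, Nr3c2 and Scnn1g, did not overlap, as did 29.5% of tested genes. Its log2 fold change was -0.53 ± 0.11, or 0.694 times, and without library 7, which had the lowest value, -0.44.

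Hsd11b2 (ENSMUSG00000031891.6, chromosome 8, 105518755 to 105523988, plus strand) was the most abundant member per length, at 265 ± 38.5 CPM per kb (SD, n = 9) and 242 ± 31.7 (SD, n = 7). It ranged from 391 to 598 CPM (median 485) with corn oil/cellulose and from 382 to 531 CPM (median 458) with fish oil/pectin. The log2 fold change was -0.18 ± 0.06, small beside the range within each diet, which spans both name forms. GC-named libraries had 485 to 598 CPM with corn oil/cellulose and 396 to 531 CPM with fish oil/pectin. The other libraries had 391 to 442 CPM and 382 to 385 CPM.

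Sgk1 (ENSMUSG00000019970.15, chromosome 10, 21882184 to 21999903, plus strand) differed by -0.22 ± 0.16 on the log2 scale. Its levels ran from 109 to 277 CPM (median 181) with corn oil/cellulose and from 76.1 to 253 CPM (median 174) with fish oil/pectin. Nedd4l (ENSMUSG00000024589.17, chromosome 18, 64887705 to 65217828, plus strand) differed by -0.16 ± 0.06, from 123 to 152 CPM (median 136) against 108 to 136 CPM (median 123). It varied least of the members, with a coefficient of variation of 8.39% over the corn oil/cellulose libraries, where Scnn1g had 78.8%.

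Fkbp5 (ENSMUSG00000024222.17, chromosome 17, 28399094 to 28517527, minus strand) differed by -0.28 ± 0.10 and Tsc22d3 (ENSMUSG00000031431.13, chromosome X, 140539528 to 140600659, minus strand) by -0.04 ± 0.10 on the log2 scale. Fkbp5 ranged from 129 to 307 CPM (median 289) with corn oil/cellulose and from 120 to 313 CPM (median 221) with fish oil/pectin. Tsc22d3 ranged from 34.3 to 76.8 CPM (median 52.8) and from 36.2 to 79.6 CPM (median 57.5). With the name forms pooled, both genes overlapped almost wholly between the diets. Fkbp5 taken by name form overlapped less. In GC-named libraries it was at 289 to 307 CPM with corn oil/cellulose and 163 to 313 CPM with fish oil/pectin. In the other libraries it was at 129 to 172 CPM and 120 to 124 CPM.

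Within each diet the order of the members by CPM per kb was nearly the same. The length used is that of all annotated exons of a gene merged, from 1840 bases (Hsd11b2) to 17659 bases (Nedd4l). The order depends on this divisor. Hsd11b2 stood first, followed by Scnn1a, Sgk1, Nr3c2, Fkbp5 and Tsc22d3 with corn oil/cellulose. Neighbours from Scnn1a to Tsc22d3 did not differ by more than the sum of their SDs. Nedd4l (7.77 ± 0.651 CPM per kb, SD, n = 9), Scnn1b and Scnn1g followed. In the other diet Fkbp5 (22.03 ± 7.88, SD, n = 7) and Nr3c2 (19.5 ± 3.73, SD, n = 7) changed places within their spread, and the step from Scnn1b to Scnn1g exceeded the sum of their SDs, which it did not with corn oil/cellulose.

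No member's diet difference was called different between the 2 name forms. Scnn1g differed by -3.05 ± 0.57 in GC-named and by -1.83 ± 0.94 in the other libraries, and Nr3c2 by -0.61 ± 0.14 and -0.37 ± 0.19. Scnn1b differed by -0.70 ± 0.25 and -0.55 ± 0.35, and among the remaining members the farthest from 0 was Sgk1 in the other libraries, at -0.31 ± 0.29. The test of the difference between the forms, an edgeR interaction term, called 8.77% of all genes and 0 of the 9 members, of which 0 had an unadjusted p under 0.05 (smallest adjusted p = 0.567, Scnn1g, difference -1.22 ± 1.18). With 2 fish oil/pectin libraries outside the GC form, this does not show that the differences are equal.

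**Figure D3:**
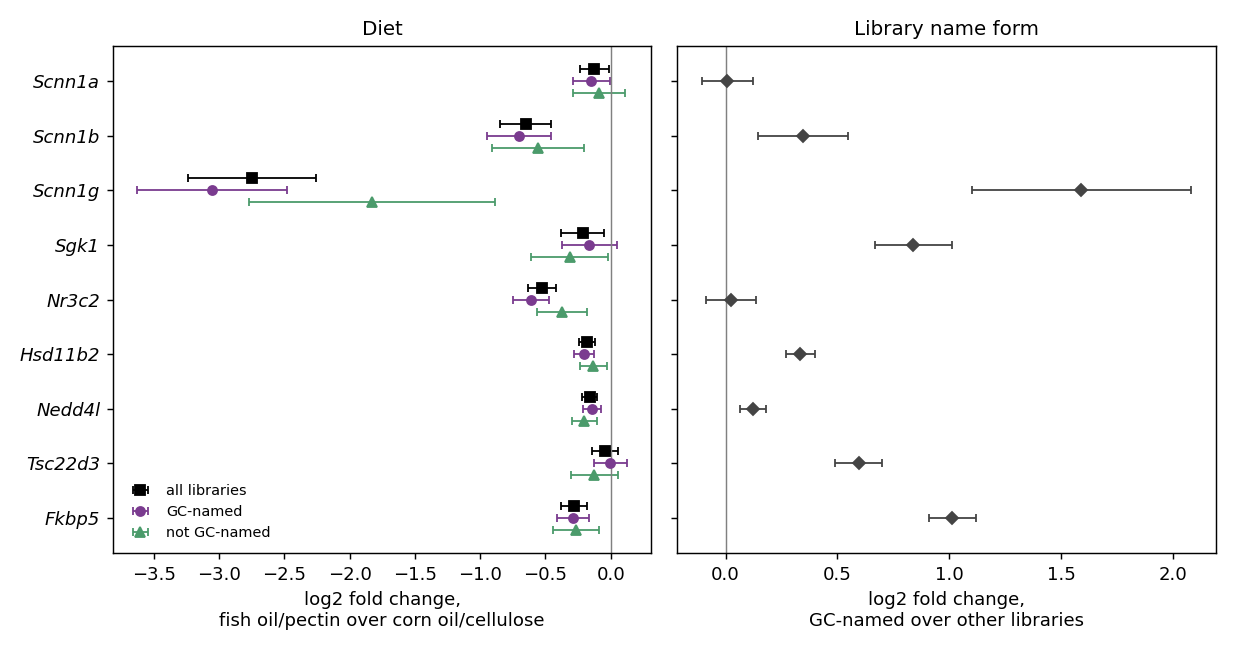
Left, log2 fold change of each gene with fish oil/pectin over corn oil/cellulose, in all libraries (squares), GC-named libraries (circles) and the others (triangles); right, log2 fold change of GC-named over other libraries; bars are standard errors. Scnn1g lies farthest to the left at -2.75, and Fkbp5 (1.01), Sgk1 (0.84) and Tsc22d3 (0.59) lie to the right by name form while Scnn1a (0.01) and Nr3c2 (0.02) do not.

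T and NK cell markers also moved with the diet: 6 of 9 tested fell and 0 rose, and Cd3e was at 3.49 to 9.17 CPM in GC-named corn oil/cellulose libraries and at up to 2.57 CPM in all others. With the mean log2 level of the non-epithelial markers as a further term, Scnn1g differed by -3.34, Nr3c2 by -0.47 and Scnn1b by -0.96, and 38 genes in all and 0 members were called. The part of non-epithelial RNA in the members' diet values was not tested. Pan-epithelial markers also moved with the diet: 7 of 10 rose with fish oil/pectin and 0 fell (median log2 fold change 0.29). Their summed level was 28278 to 34351 CPM in GC-named fish oil/pectin libraries, 22787 to 24118 CPM in GC-named corn oil/cellulose libraries and 19533 to 20109 CPM in corn oil/cellulose libraries without the prefix. In the 2 fish oil/pectin libraries without the prefix it was 19668 and 19789 CPM, within that last range. The 8 posterior Hox genes differed between the diets by -0.47 (Hoxd11) to 0.39 (Hoxa11) on the log2 scale, and the smallest edgeR adjusted p was 0.104 (Hoxa13). With their mean as a further term Scnn1g differed by -2.61 and Nr3c2 by -0.45.

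The name form was not used in choosing the genes, and the steroid-response genes differed by it. Fkbp5, Sgk1, Tsc22d3, Hsd11b2 and Scnn1g were higher in GC-named libraries, 5 of 9 members, and 0 were lower. Of all genes 41.1% were called, 20.4% higher and 20.8% lower. Scnn1a, Scnn1b, Nr3c2 and Nedd4l did not pass.

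Fkbp5 was at 304, 289, 307, 296 and 290 CPM in GC-named corn oil/cellulose libraries and at 152, 129, 172 and 132 CPM in the others of that diet. With fish oil/pectin it was at 263, 256, 221, 163 and 313 CPM in GC-named libraries and at 124 and 120 CPM in the others. Only GC-named fish oil/pectin library 6, at 163 CPM, reached into the range of the other form. The log2 fold change of GC-named over other libraries was 1.01 ± 0.11, a 2.02-fold higher level (edgeR adjusted p = 3.71e-06).

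Sgk1 was at 277, 182, 260, 196 and 181 CPM in GC-named and 126, 113, 162 and 109 CPM in other corn oil/cellulose libraries. With fish oil/pectin it was at 253, 200, 174, 113 and 238 CPM in GC-named and 129 and 76.1 CPM in other libraries. It rose by 0.84 ± 0.17, or 1.79-fold (edgeR adjusted p = 0.00121). Library 6 of the fish oil/pectin diet was again the 1 GC-named library inside the range of the other form.

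Tsc22d3 was the 1 member whose name forms did not overlap over all libraries, at 52.8 to 79.6 CPM against 34.3 to 52.0 CPM, a pattern shown by 9.32% of tested genes. It rose by 0.59 ± 0.11, or 1.51-fold (edgeR adjusted p = 0.000395). Hsd11b2 rose by 0.33 ± 0.07, or 1.26-fold (edgeR adjusted p = 0.000755), from 382 to 442 CPM in the other libraries to 396 to 598 CPM in GC-named ones. Within the corn oil/cellulose diet 4 members (Sgk1, Hsd11b2, Tsc22d3 and Fkbp5) were higher in GC-named libraries without overlap, and 19.9% of tested genes did not overlap there.

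Scnn1g rose by 1.59 ± 0.49, or 3.01-fold (edgeR adjusted p = 0.0162), and its call was the least stable. The Y-linked genes put 6 of 6 libraries without the GC prefix and 3 of 10 with it among males, so name form and sex are partly confounded. With sex as a further term Scnn1g differed by 1.44 (edgeR adjusted p = 0.129) and no longer passed. Sgk1 (1.00), Tsc22d3 (0.66), Fkbp5 (1.05) and Hsd11b2 (0.31) still passed, while 1953 genes in all were called in place of 5687. Since every library without the prefix was male, that fit compares the forms only through the 3 male GC-named libraries. GC-named libraries also had more T cell RNA (7 of 9 tested markers rose), more RNA of pan-epithelial markers (8 of 10 rose, median 0.37) and of surface colonocyte markers (8 of 12 rose), and less of crypt base and stem cell markers (4 of 8 fell) and goblet cell markers (4 of 9 fell). With the non-epithelial score as a further term 5 members still passed, with Fkbp5 at 1.04, Sgk1 at 1.08 and Tsc22d3 at 0.52. The part of the epithelial subtypes was not tested.

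Levels also varied together between libraries of the same diet and name form. The mean of each of the 4 groups was removed from log2 CPM, and all 36 pairs of members were compared by permutation within the groups (100000 draws, two-sided). Only Sgk1 and Fkbp5 passed after Benjamini-Hochberg adjustment, with Pearson's r = 0.80 (permutation p = 0.00011, adjusted p = 0.00396, n = 16) and Spearman's rho = 0.77 (permutation p = 6.00e-05, adjusted p = 0.00216). Within GC-named libraries r was 0.85 (n = 10) and within the others 0.68 (n = 6). Without fish oil/pectin libraries 3 and 6, the farthest from the median Sgk1 level, r was 0.67. Tsc22d3, the other steroid readout, had r = 0.41 with Sgk1 (permutation adjusted p = 0.588) and r = 0.36 with Fkbp5 (permutation adjusted p = 0.625).

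**Figure D4:**
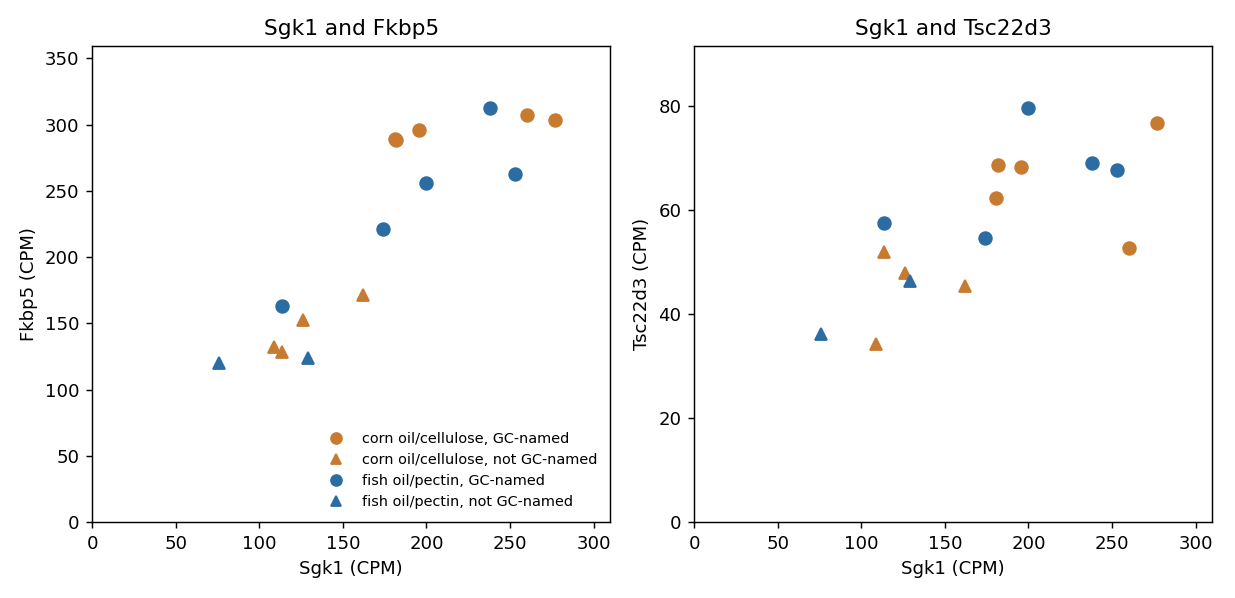
CPM of Fkbp5 (left) and Tsc22d3 (right) against CPM of Sgk1, 1 point per library, coloured by diet and shaped by name form. Fkbp5 follows Sgk1 within each form (r = 0.85 in GC-named and 0.68 in other libraries, group means removed), and GC-named fish oil/pectin library 6 lies among the other form at 113 CPM of Sgk1 and 163 CPM of Fkbp5.

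No pair of channel subunits passed. Scnn1a had r = 0.01 with Scnn1b (permutation adjusted p = 0.994) and 0.46 with Scnn1g (permutation adjusted p = 0.588). Scnn1b and Scnn1g had r = 0.08 (permutation adjusted p = 0.994), which was 0.63 without fish oil/pectin library 7 (permutation adjusted p = 0.0653, n = 15). Scnn1g and Nr3c2 had r = 0.76 (permutation p = 0.0132, adjusted p = 0.238), which fell to 0.45 without fish oil/pectin library 7 (permutation adjusted p = 0.483, n = 15) and so rests on that library. Dropping that library and corn oil/cellulose library 2, with the group means of all libraries kept, gave r = 0.42. Without library 7 a further pair passed, Nr3c2 and Nedd4l (r = 0.85, permutation adjusted p = 0.0167, n = 15).

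Scnn1g followed the mean of the posterior Hox genes, a relation examined after the values were seen. It belonged to a family of 18 that set each member against 2 scores. With the group means removed r was 0.90 (permutation p = 8.00e-05, adjusted p = 0.00144, n = 16) and rho 0.86 (permutation p = 0.00049, adjusted p = 0.00882). It was 0.92 within GC-named libraries (n = 10) and 0.92 within the others (n = 6). Without fish oil/pectin library 7 r was 0.86 (permutation adjusted p = 0.00792, n = 15). Dropping that library and corn oil/cellulose library 2, with the group means of all libraries kept, gave r = 0.79. Nr3c2 had r = 0.88 (permutation adjusted p = 0.0748) and 0.59 without library 7. The score of non-epithelial markers passed with 0 of the 9 members after adjustment, and 1 (Scnn1b, r = -0.58, permutation p = 0.0125) had an unadjusted p under 0.05. Without library 7 these were the 3 channel subunits, Scnn1a (r = -0.72, permutation p = 0.0138), Scnn1g (r = -0.60, permutation p = 0.0193) and Scnn1b (r = -0.59, permutation p = 0.0248). None of the 3 passed after adjustment (permutation adjusted p = 0.0694, 0.0694 and 0.0744, n = 15).

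**Figure D5:**
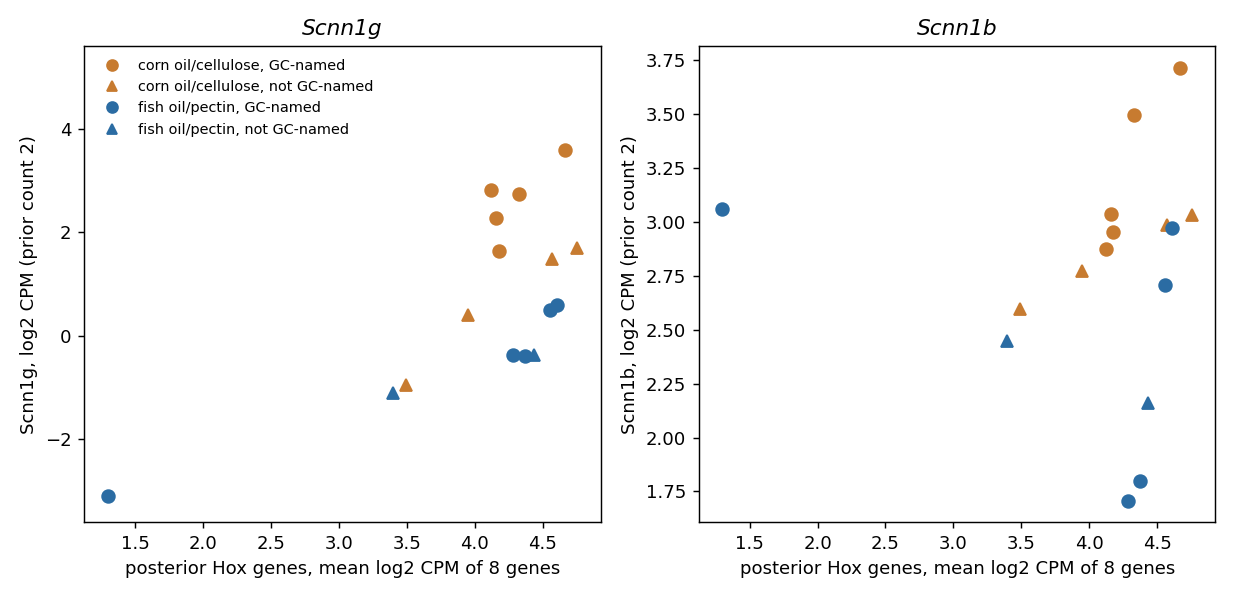
Log2 CPM of Scnn1g (left) and Scnn1b (right) against the mean log2 CPM of 8 posterior Hox genes, 1 point per library, coloured by diet and shaped by name form. Scnn1g rises with the Hox score inside each group (r = 0.90 with group means removed), fish oil/pectin points lie below corn oil/cellulose points at like Hox scores, and Scnn1b in fish oil/pectin library 7 is high although its Hox score is 1.299.

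The genes whose levels were most like Scnn1g over the 16 libraries, with group means removed, were ranked among 11110 tested genes by Pearson's r, as a description. The first 10 were Slc28a3, a nucleoside transporter gene (r = 0.97), Tmem64 (0.97), the growth factor gene Pdgfd (0.96), Pros1, which encodes anticoagulant protein S (0.94), the BMP antagonist gene Nbl1 (0.94), the apoptosis gene Bid (0.93), the adhesion molecule gene Clmp (0.93), Stxbp6 (0.93), Oas1b (0.92) and the metalloproteinase inhibitor gene Timp4 (0.92). Hoxd12 ranked 13, Hoxd11 20, Hoxd10 26 and Hoxd13 46. Of the other posterior Hox genes Hoxb13 ranked 82, Hoxa13 784 and Hoxa10 1202. Hoxa11 went the other way (r = -0.44) and ranked 8506. The anterior Hox genes that were ranked ran from r = -0.70 (Hoxa7) to 0.05 (Hoxa5). Of the other members Nr3c2 ranked highest, at 334. The diet log2 fold changes of the first 10 genes ran from -0.62 (Timp4) to 0.14 (Bid). Scnn1g was chosen with its diet difference known, and these 10 genes were picked with the diet means removed. That they differed less by diet than Scnn1g can therefore not be read as a result.

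Other genes of the pathway are given from lists that, like the members, were drawn up with earlier results of these data known. Their diet counts stand beside the 22.1% of all genes that rose and the 20.6% that fell with fish oil/pectin. Their name form counts stand beside the 20.4% that were higher and the 20.8% that were lower in GC-named libraries. No list was tested against those shares. Of 8 tested proteases and protease inhibitors of ENaC 2 rose and 1 fell, with a median log2 fold change of -0.0047. Prss8, the channel-activating protease prostasin, rose by 0.20 ± 0.06 (edgeR adjusted p = 0.0125), Tmprss4, a membrane serine protease that can activate the channel, by 0.23 ± 0.07 (edgeR adjusted p = 0.0161), and Furin, the convertase that cleaves alpha and gamma subunits, fell by 0.22 ± 0.06 (edgeR adjusted p = 0.0117). Of 9 tested ubiquitin and deubiquitinase regulators 4 rose and 0 fell (median 0.10). The deubiquitinase gene Uchl3 rose by 0.51 ± 0.09 (edgeR adjusted p = 0.000732), and the genes of the phosphoprotein-binding adaptors Ywhae and Ywhaq by 0.29 and 0.24. By name form 2 of the 8 proteases and inhibitors were higher and 1 lower in GC-named libraries. Of the 9 ubiquitin regulators 1 was higher and 2 were lower there.

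Of 15 kinases of ENaC control and their partners 1 rose and 5 fell (median -0.06). Rictor, the defining subunit of the kinase complex that phosphorylates Sgk1, fell by 0.60 ± 0.10 (edgeR adjusted p = 0.00054), Wnk1 by 0.36 ± 0.08 and Pdpk1, the activating kinase of Sgk1, by 0.34 ± 0.09. Rictor ranged from 38.2 to 55.3 CPM with corn oil/cellulose and from 18.1 to 43.1 CPM with fish oil/pectin. These 3 genes also fell in GC-named against other libraries, by 0.50, 0.46 and 0.61. Of the 15 genes 1 was higher and 3 were lower by name form (median -0.09).

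Of 13 receptors, chaperones and steroid-metabolising enzymes 4 rose and 6 fell (median -0.26). The receptor coactivator gene Ncoa2 fell by 0.48 ± 0.08 (edgeR adjusted p = 0.00063), Nr5a2, a regulator of intestinal steroid synthesis, by 0.26 ± 0.05, and the co-chaperone gene Fkbp4 rose by 0.48 ± 0.10 (edgeR adjusted p = 0.00181). Fkbp4, which counteracts Fkbp5 on the receptor, was at 283 to 427 CPM with corn oil/cellulose and at 432 to 724 CPM with fish oil/pectin, without overlap. By name form 0 of the 13 were higher and 6 were lower in GC-named libraries (median -0.11). The glucocorticoid receptor gene Nr3c1 was at 111 to 126 CPM in GC-named and 133 to 149 CPM in other corn oil/cellulose libraries. With fish oil/pectin Nr3c1 was at 80.3 to 118 CPM in GC-named and 113 to 124 CPM in other libraries.

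Corticosteroid-induced genes that were called by name form were mostly higher in GC-named libraries. Of 18 tested, 1 rose and 5 fell with fish oil/pectin (median -0.13), while 8 rose and 1 fell in GC-named libraries (median 0.37, against 0.01 over all genes). The mean over the listed genes with any count, tested or not, was 3.78 to 4.05 log2 CPM in GC-named and 3.39 to 3.64 in other libraries. Dusp1, a phosphatase gene that also responds to stress, rose by 2.61 by name form (edgeR adjusted p = 1.39e-10) and fell by 0.55 ± 0.11 with fish oil/pectin. Its level was 85.2 to 190 CPM in GC-named and 17.3 to 26.7 CPM in other libraries. Nfkbia rose by both, by 0.25 with fish oil/pectin and 0.29 by name form. Klf9, a transcription factor gene induced by glucocorticoids, fell by both, by 0.58 and 0.43.

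Of 13 aldosterone-induced transport genes 0 rose and 4 fell with fish oil/pectin (median -0.23), and 7 rose and 2 fell in GC-named libraries (median 0.42). The potassium channel gene Kcnma1 fell by 0.47 ± 0.14 with fish oil/pectin (edgeR adjusted p = 0.0116), Cnksr3, a scaffold gene of the channel's regulatory complex, by 0.34 ± 0.10, and the transcription factor gene Grhl2 by 0.23 ± 0.07. Of 25 genes of colonic ion and water transport, which share members with that list, 5 rose and 6 fell (median -0.14). The bicarbonate cotransporter gene Slc4a7 fell by 0.47 ± 0.10, the chloride channel gene Cftr by 0.36 ± 0.09, and the potassium channel gene Kcnn4 rose by 0.39 ± 0.09. The remaining 14 did not pass with diet. By name form 9 of the 25 were higher and 7 were lower in GC-named libraries (median 0.20).

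The circadian clock, whose output is tied to corticosteroid rhythm, was examined beside these genes, and the labels give no hour of collection. Of 14 tested clock genes 1 rose and 9 fell with fish oil/pectin (median -0.60). Ciart fell by 1.28 ± 0.22 (edgeR adjusted p = 0.000594), Per3 by 1.18 ± 0.22 and Nr1d2 by 0.76 ± 0.19. Per3 was at 16.4 to 55.5 CPM with corn oil/cellulose and at 3.54 to 17.9 CPM with fish oil/pectin. The part of the clock in the members' values was not tested.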

How the data were processed

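Reads per gene symbol were deposited by the authors as raw counts, with no normalisation; STAR 2.6.0a, HTSeq 0.11.1 and GRCm38 are named per the submitters' processing notes. The labels state neither the strand setting nor the annotation release. There were 0 unused per-sample columns. Counts were fitted with edgeR 4.0.16 (R 4.3.3) by its robust quasi-likelihood test with TMM scaling, filterByExpr by diet (13825 genes, 99.9% of counts), terms for name form and diet, and Benjamini-Hochberg adjustment over all tested genes at 0.05. An interaction term gave the diet effect by name form. CPM are TMM-scaled; log2 CPM used a prior count of 2. Symbols were matched to GENCODE M21 (98.8%) for coordinates and exon length, the latter merged over all annotated exons of a gene. The 9 members and all gene lists were chosen with earlier results of these data known. Genes named were the members, up to 3 per pathway or clock list with the lowest diet p, and the 10 most like Scnn1g; others named (single marker, Hox and T cell genes, and features singled out) were chosen after their values were seen. On simulated data with 13719 genes the diet fit recovered 95.0% of 2-fold and 100% of 4-fold changes, and with 13728 genes the name form fit recovered 87.4% and 98.9%. No 2 libraries of a diet agreed within sampling noise (chi-square per degree of freedom at least 8.20). Alternatives included DESeq2 1.42.0, limma 3.58.1 voom with quality weights, other scalings, filters, terms and subsets of libraries.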

Additional observations from a re-analysis of the deposited data

Results flagged for a closer look

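In 28 combinations of a measure (9 members and 5 marker scores) and a diet the libraries were searched for a single value far from the rest. Chance gives about 1 in 20, and 2 were found. Both concern fish oil/pectin library 7. Its mean over the 8 posterior Hox genes was 1.299 log2 CPM, the lowest of the 7 fish oil/pectin libraries by a gap that is 63.4% of their range. Its mean over the clock genes was 3.20 log2 CPM, again the lowest, by a gap that is 70.2% of the range. The same library had 0 counts of Scnn1g, the lowest Nr3c2 (77.8 CPM) and Scnn1a (106 CPM), and the highest Fkbp5 (313 CPM) and Scnn1b (8.23 CPM) of its diet.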

How the results depend on the processing

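The diet difference of Scnn1g kept its direction in 30 of 30 settings (-3.34 to -1.82), as did that of Nr3c2 (-0.63 to -0.36) and Scnn1b (-0.96 to -0.43). With RLE scaling, DESeq2 and limma voom 6 members were called with diet, as in the edgeR fit. Without a filter on low counts 4 were. Males made up a larger part of the corn oil/cellulose than of the fish oil/pectin libraries. With sex as a further term 5514 genes and 6 members were called with diet. Total-count scaling moved the median of all genes by -0.07 and split the calls into 2247 higher and 3695 lower, against 3055 and 2854, and 6 members were again called. Without the name form term 3 members were called, and Tsc22d3 turned to 0.054. GC-named libraries alone called 2 members; the 6 others alone called 900 genes and 0 members; the lower-numbered libraries alone, 4 corn oil/cellulose and 7 fish oil/pectin, called 2230 genes and 1 member. The non-epithelial term left 38 genes and 0 members, with Tsc22d3 at 0.017; the cause of these losses was not tested, and the subsets have fewer libraries.

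Replicate numbers did not pair the libraries (correlations of same-numbered deviations -0.16 to 0.30 over 7 pairs, so not every library follows its number). With a replicate block 3514 genes and 5 members were called with diet, and 18 genes and 0 members between name forms, where Scnn1b turned to -0.85. In that fit the forms differ within a number only for numbers 3 and 4, where GC goes with fish oil/pectin. The blocked fit can therefore decide little about the name form.

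Between name forms Scnn1a and Nr3c2, both near 0, turned to -0.080 and -0.060 with total-count scaling, Scnn1a to -0.024 with voom and to -0.0072 with the posterior Hox term, and Nr3c2 to -0.048 with the non-epithelial term. With sex as a term 1953 genes were called, and Scnn1a (-0.26) and Scnn1b (-0.10) turned. Without a filter on low counts Scnn1g missed the threshold (edgeR adjusted p = 0.0581). Removing only the diet means, which leaves the name form in, gave 7 correlated pairs of members, and leaving out fish oil/pectin library 7 gave 2.

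Leaving out each library in turn gave 5043 to 6001 genes and 4 to 6 members with diet, and 4162 to 5994 genes and 5 to 6 members between name forms. The diet value of Tsc22d3 ran from -0.10 to 0.0086, and the name form values of Scnn1a from -0.050 to 0.054 and of Nr3c2 from -0.016 to 0.11. Genes with a diet by name form difference ran from 6, without fish oil/pectin library 2, to 1765, without library 3, and members stayed at 0. Leaving out any one of corn oil/cellulose libraries 3, 4, 6, 7 and 8 or of fish oil/pectin libraries 1 and 4 gave 342 to 787, against 1212. That difference ran from -0.18 to 0.035 for Scnn1a, -0.31 to 0.0079 for Scnn1b, -0.18 to 0.58 for Sgk1, -0.025 to 0.15 for Nedd4l, -0.048 to 0.31 for Tsc22d3 and -0.13 to 0.095 for Fkbp5. The diet difference without the GC prefix rests on 2 fish oil/pectin libraries, and Scnn1g on at most 188 counts.

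Chosen after seeing the data were the name form values with a sex, posterior Hox or non-epithelial term, the correlations within each name form or without fish oil/pectin library 7, and the fit without fish oil/pectin libraries 6 and 7 together, which called 4332 genes and 5 members with diet.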
